A study of Mus musculus with 6 samples.

Results

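The 10 genes described here, Tyr, Tyrp1, Dct, Pmel, Mlana, Oca2, Slc45a2, Mc1r, Mitf and Kit, are the pigment genes of melanocytes, the pigment cells that sit in the hair bulb of mouse skin. They were taken by gene symbol, and all 10 were found among the 27179 genes of the deposited count table and passed the filter on low counts. RNA-seq libraries were made from frozen skin of female BALB/c mice aged 6 to 8 weeks. There was 1 library of skin labelled control, with no word on a vehicle, and 1 of skin exposed to bleomycin, which is used in mice to model the skin fibrosis of scleroderma. Another library came from skin that received bleomycin and EHP-101, an oral formulation of a cannabidiol derivative, and 3 came from skin that received bleomycin and ajulemic acid, a synthetic cannabinoid. No dose, route or time is stated by the labels. BALB/c mice are albino, so the hair bulb melanocytes of every group make no pigment.

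The libraries held between 14291592 and 19837682 counts. Mitochondrial ribosomal RNA took 17.3 to 26.5% of them, with control and ajulemic acid replicate 2 at the upper end. Every library expressed skin markers, with the basal keratin Krt5 at 1444 to 2288 CPM (counts scaled to a common library size) and the collagen gene Col1a1 at 704 to 1684. Control, bleomycin and EHP-101 had no replicate, so the error in every test came from the 3 ajulemic acid libraries, on the assumption that the other groups vary as much. Whether those 3 came from different animals is not said; p-values therefore reflect the scatter among these 3 samples, and that scatter may be technical. Intervals are exact 95% Poisson intervals for CPM and exact Clopper-Pearson intervals for shares, and both cover counting error only.

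Melanocytes make melanin from tyrosine inside melanosomes. The hair cycle sets when they do so in skin: follicle melanocytes mature and express these genes while the hair shaft grows in anagen, and they are lost as the follicle regresses, leaving stem cells behind. Kit, the receptor for stem cell factor, keeps melanocytes and their precursors alive. Mc1r, the receptor for melanocortin and its antagonist agouti, acts through cyclic AMP to raise Mitf, the transcription factor that drives most of the other genes. Albino mice carry a missense change in Tyr that leaves tyrosinase inactive; the gene is still transcribed.

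The known route from Mitf to the melanin enzymes runs through a short promoter element, the M-box, whose core is CATGTG. The promoters shown here are those of the members in which CATGTG was found. They were not picked by their genes' profiles over the libraries, and a link between the element and these profiles was not tested. RefSeq promoter windows of GRCm38.p6 were matched by symbol for 7 of the 10 genes, all but Pmel, Mlana and Slc45a2, and the 250 bases before each listed start site were searched on both strands. CATGTG, which reads CACATG on the other strand, was present in 5 of the 10 windows of these genes, 1 each in Tyr, Tyrp1, Dct, Mc1r and Oca2, and in 12.3% of all 32851 windows. The other windows were 2 of Kit, which overlap each other, and 3 of Mitf, and they lacked CATGTG. The longer GTCATGTGCT is CATGTG with the 2 bases on each side of it in Tyrp1, and so overlaps it. Its match in Tyrp1 was therefore fixed in advance. The longer element was also in the windows of the other melanin enzymes, Tyr and Dct. With Tyrp1 counted, it was in 3 of the 10 windows and in 0.155% of all windows. A related element, CACGTG, was in 0 of the members' windows and in 6.02% of all. The sequences come from the reference strain and not from BALB/c. They run 5′ to 3′ along the gene, with capitals marking CATGTG in either orientation.
Tyr, chr7:87493513-87493762, minus strand: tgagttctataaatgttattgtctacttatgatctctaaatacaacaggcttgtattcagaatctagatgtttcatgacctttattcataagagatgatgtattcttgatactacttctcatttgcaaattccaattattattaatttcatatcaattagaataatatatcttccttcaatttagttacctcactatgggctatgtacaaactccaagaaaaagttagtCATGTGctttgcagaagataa
Tyrp1, chr4:80833963-80834212, plus strand: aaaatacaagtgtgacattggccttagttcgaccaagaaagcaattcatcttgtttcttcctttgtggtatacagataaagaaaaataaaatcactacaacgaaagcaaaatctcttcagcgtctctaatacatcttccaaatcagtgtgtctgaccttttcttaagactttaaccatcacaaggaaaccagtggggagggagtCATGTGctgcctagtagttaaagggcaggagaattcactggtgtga
Dct, chr14:118052247-118052496, minus strand: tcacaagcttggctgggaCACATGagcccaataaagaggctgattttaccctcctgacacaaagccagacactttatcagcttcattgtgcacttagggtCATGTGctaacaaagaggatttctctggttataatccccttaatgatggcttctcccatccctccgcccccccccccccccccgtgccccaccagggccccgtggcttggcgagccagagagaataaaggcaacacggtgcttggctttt
Mc1r, chr8:123406832-123407081, plus strand: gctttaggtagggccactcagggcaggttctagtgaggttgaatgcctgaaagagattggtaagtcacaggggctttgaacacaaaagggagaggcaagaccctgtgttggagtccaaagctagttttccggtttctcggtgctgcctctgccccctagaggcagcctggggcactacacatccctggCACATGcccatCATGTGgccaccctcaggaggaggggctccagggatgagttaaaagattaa
Oca2, chr7:56239509-56239758, plus strand: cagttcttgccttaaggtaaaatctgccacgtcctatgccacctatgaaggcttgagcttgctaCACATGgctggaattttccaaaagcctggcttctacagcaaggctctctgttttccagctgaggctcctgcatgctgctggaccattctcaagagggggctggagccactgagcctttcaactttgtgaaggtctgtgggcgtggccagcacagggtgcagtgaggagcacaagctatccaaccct
In Tyr the element began 21 bases before the start site of this table and 122 bases before the first exon base of the count table, whose gene model starts further in. In Tyrp1 it began 46 bases before the table's start and in Dct 150 bases before it, with another copy at 232. Mc1r carried a copy in each orientation, beginning 62 and 51 bases before its start. A match is a description of the letters and was not tested for binding.

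Mitf itself has several alternative first exons, and RefSeq listed 3 start sites. The most downstream one is that of the melanocyte form, and it is shown because it is known as the entry point of cyclic AMP signals. Capitals mark TGACGTCA, which began 153 bases before that start. It is the cyclic AMP response element, reads the same on both strands, overlaps none of the other motifs searched and was in 1.55% of all windows.
Mitf, chr6:97991533-97991782, plus strand: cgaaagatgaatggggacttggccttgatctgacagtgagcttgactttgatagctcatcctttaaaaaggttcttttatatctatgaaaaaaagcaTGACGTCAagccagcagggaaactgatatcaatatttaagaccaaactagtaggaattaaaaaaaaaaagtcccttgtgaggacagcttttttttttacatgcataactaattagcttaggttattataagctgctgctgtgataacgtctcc
The count table summed all forms of Mitf over 12 exon blocks, so the melanocyte form was not counted apart from those of other cells.

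Melanin enzymes were lowest in the bleomycin library and in ajulemic acid replicate 2. Tyr, tyrosinase, catalyses the first step of melanin synthesis (gene 22173, mm10 chromosome 7, 87427405 to 87493411, 5 exons). It was at 26.9 CPM in control (409 counts, interval 24.3 to 29.6), 4.04 in bleomycin (63 counts, interval 3.11 to 5.17) and 23.4 in EHP-101 (383 counts). In ajulemic acid replicates 1, 2 and 3 it was at 19.9, 3.27 and 40.8 CPM, a mean of 21.3 ± 18.8 (SD, n = 3). Below, 3 values under ajulemic acid are replicates 1, 2 and 3 in that order, and "after bleomycin" means bleomycin alone. Tyr transcripts were therefore present in all 6 albino libraries, and the bleomycin value lay inside the range of the ajulemic acid group. Tyrp1, which acts on a later intermediate and steadies tyrosinase (gene 22178, chromosome 4, 80834230 to 80851718), was at 68.7 CPM in control skin, 22.01 after bleomycin, 65.7 under EHP-101 and 78.8, 15.5 and 127 under ajulemic acid. Dct, dopachrome tautomerase, also marks melanoblasts and melanocyte stem cells (gene 13190, chromosome 14, 118012790 to 118052246). It was at 97.8 CPM in control skin, 40.2 after bleomycin, 104 under EHP-101 and 110.2, 25.7 and 208 under ajulemic acid. Control, EHP-101 and ajulemic acid replicate 1 lay close together for these enzymes, replicate 3 stood above them, and bleomycin and replicate 2 stood below.

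**Figure D1:**
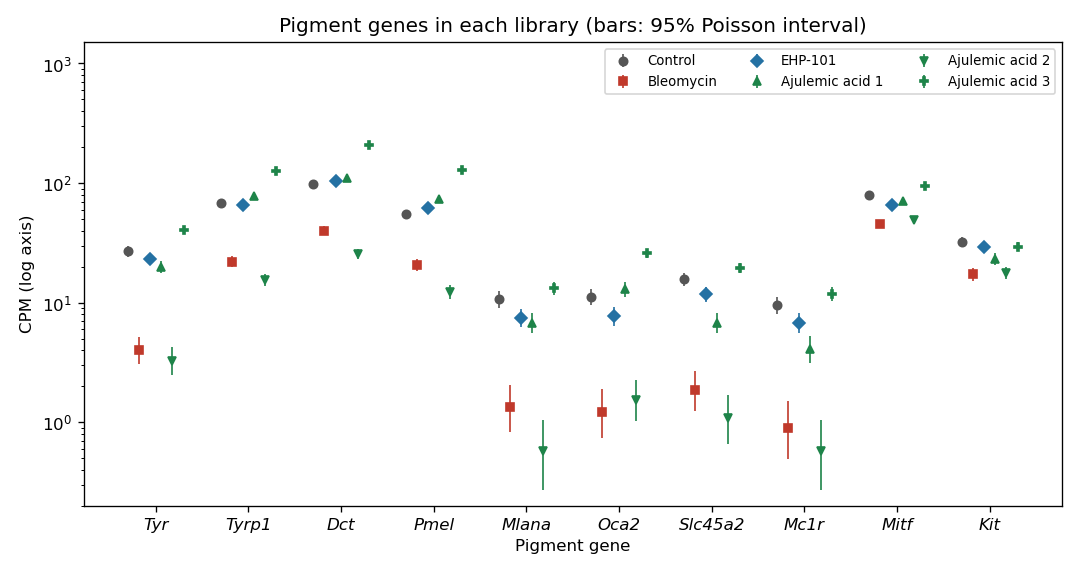
CPM (log axis) of the 10 pigment genes in the 6 libraries; each point is 1 library and bars are 95% Poisson intervals. Bleomycin (squares) and ajulemic acid replicate 2 (downward triangles) are the lowest pair for all 10 genes, with the narrowest gaps to the other libraries for Mitf and Kit.

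The 2 structural genes of the melanosome had the same lowest and highest libraries. Pmel encodes the fibrils on which melanin is laid down (gene 20431, chromosome 10, 128706258 to 128720238). It was at 55.5 CPM in control skin, 20.7 after bleomycin, 62.4 under EHP-101 and 73.2, 12.3 and 128 under ajulemic acid. Its exons share 105 bases with Dgka on the opposite strand, and a part of its counts is uncertain because the strand setting of the counting is not given in the sources used here. Mlana, a small melanosomal membrane protein (gene 77836, chromosome 19, 29697941 to 29708306), was at 10.7 CPM in control skin (163 counts), 1.35 after bleomycin (21 counts), 7.51 under EHP-101 (123 counts) and 6.82, 0.573 and 13.3 under ajulemic acid. Replicate 2 held only 10 Mlana counts, and its interval of 0.275 to 1.05 CPM overlapped that of bleomycin, 0.834 to 2.06.

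Both melanosomal transporters were also lowest in these libraries. Oca2, which sets the chloride and pH balance of the melanosome (gene 18431, chromosome 7, 56239771 to 56536517), was at 11.2 CPM in control skin, 1.22 after bleomycin, 7.69 under EHP-101 and 12.96, 1.55 and 25.98 under ajulemic acid. Slc45a2, another melanosomal transporter (gene 22293, chromosome 15, 11000721 to 11029233), was at 15.7 CPM in control skin, 1.86 after bleomycin, 11.8 under EHP-101 and 6.82, 1.09 and 19.5 under ajulemic acid. Ajulemic acid replicate 1 was above control for Oca2 and below it for Slc45a2.

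Among the regulators, Mc1r varied like the transporters, while Mitf and Kit spanned a much narrower range. Mc1r (gene 17199, chromosome 8, 123407082 to 123410744, a single exon) was at 9.59 CPM in control skin, 0.898 after bleomycin, 6.83 under EHP-101 and 4.09, 0.573 and 11.9 under ajulemic acid. Mitf (gene 17342, chromosome 6, 97807058 to 98021358) was at 79.4 CPM in control skin, 45.2 after bleomycin, 65.2 under EHP-101 and 70.8, 49.5 and 94.1 under ajulemic acid. Kit (gene 16590, chromosome 5, 75574987 to 75656722) was at 32.5 CPM in control skin, 17.3 after bleomycin, 29.2 under EHP-101 and 23.3, 17.8 and 29.4 under ajulemic acid. From the lowest to the highest library the CPM differed 2.08-fold for Mitf and 1.88-fold for Kit, against 8.11-fold for Dct, 12.5-fold for Tyr, 20.7-fold for Mc1r and 23.1-fold for Mlana. In bulk skin, fewer melanocytes and less RNA per melanocyte cannot be told apart.

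The first comparison set bleomycin against control skin. All 10 genes were lower in the bleomycin library, with a median log2 fold change of -2.19, against -0.01 over all 17377 genes tested. Control CPM exceeded bleomycin CPM 10.7-fold for Mc1r, 9.16-fold for Oca2, 8.44-fold for Slc45a2, 7.95-fold for Mlana and 6.65-fold for Tyr. The ratio was 3.12 for Tyrp1, 2.68 for Pmel, 2.43 for Dct, 1.88 for Kit and 1.76 for Mitf. Tyr had a log2 fold change of -2.73 (SE 1.80) and Kit one of -0.91 (SE 0.39), the smallest p of the 10 (adjusted p = 0.757, with a gene passing when it is under 0.05, by edgeR's quasi-likelihood test with Benjamini-Hochberg adjustment). By that test 0 of the 10 genes passed in this comparison, against 0% of all genes, and 0 had an unadjusted p under 0.05, against 6.80% of all genes. DESeq2 and limma also called 0, with 1 and 0 at an unadjusted p under 0.05. The counting intervals of control and bleomycin did not overlap for any of the 10 genes, but none passed against the spread within the ajulemic acid group. The share of all genes with such separate intervals was not computed, so this says only that the differences exceeded counting error.

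In the second comparison, EHP-101 against bleomycin alone, all 10 genes were higher in the EHP-101 library, with a median log2 fold change of 2.03 and 0.00 over all genes tested. EHP-101 CPM exceeded bleomycin CPM 7.61-fold for Mc1r, 6.36-fold for Slc45a2, 6.31-fold for Oca2, 5.78-fold for Tyr and 5.57-fold for Mlana. For Tyr the log2 fold change was 2.53 (SE 1.79), for Dct 1.38 (SE 1.45), for Mitf 0.53 (SE 0.46) and for Kit 0.76 (SE 0.39). By edgeR 0 of the 10 passed, against 0% of all genes, and 0 had an unadjusted p under 0.05, against 1.89% of all genes. DESeq2 and limma called 0 as well. The first comparison and this one share the single bleomycin library, so the opposite signs are not independent of each other.

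The third comparison set ajulemic acid against the same bleomycin library. The fitted log2 fold change was positive for all 10 genes, with a median of 2.04 against 0.02 over all genes tested. The replicates did not share that direction: replicates 1 and 3 were above bleomycin for all 10 genes, while replicate 2 was below it for 7 and above it for Oca2, Mitf and Kit. Tyr had a log2 fold change of 2.40 (SE 1.61), Oca2 one of 3.46 (SE 1.94), Mitf 0.66 (SE 0.39) and Kit 0.45 (SE 0.33). By edgeR 0 of the 10 passed (smallest adjusted p = 0.998), against 0% of all genes, and 0 had an unadjusted p under 0.05, against 3.83% of all genes. DESeq2 and limma called 0, with 2 and 0 at an unadjusted p under 0.05. Without replicate 2 the median was 2.56, and edgeR gave all 10 genes an unadjusted p under 0.05, against 13.2% of all genes, with a smallest adjusted p of 0.110. Without replicate 3 the median was 1.08. With limma, which averages the replicates on the log scale, it was 1.36. Leaving replicate 2 out of the fit also gave 10 genes an unadjusted p under 0.05 in bleomycin against control, where 13.6% of all genes had one (smallest adjusted p = 0.164 by edgeR). In EHP-101 against bleomycin it gave 9, where 6.54% of all genes had one (smallest adjusted p = 0.589 by edgeR), and 0 passed in either. Replicate 2 was the low one of the ajulemic acid libraries, so leaving it out narrowed the scatter that sets the error. In bleomycin against control, EHP-101 against bleomycin and ajulemic acid against bleomycin, leaving out replicate 1 gave 0, 0 and 0 such genes. Leaving out replicate 3 gave 2, 1 and 0. Over all genes the shares were 2.89, 0.611 and 1.83% without replicate 1 and 11.7, 5.03 and 4.22% without replicate 3.

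**Figure D2:**
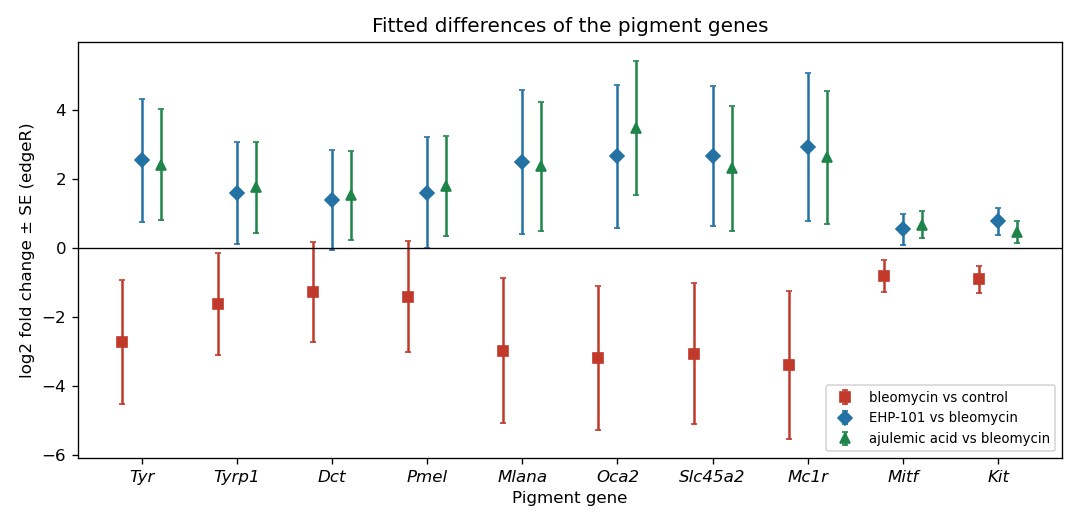
Log2 fold changes fitted by edgeR (y axis, points) with 1 SE (bars) for the 10 pigment genes in 3 comparisons. Bleomycin is below control for every gene, from -0.81 for Mitf to -3.41 for Mc1r, and both treatments are above bleomycin; the SE is 1.28 to 2.15 for the 8 pigment-making genes and 0.33 to 0.46 for Mitf and Kit.

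The ajulemic acid libraries show how far these genes ranged under 1 label. The highest of the 3 exceeded the lowest 12.5-fold for Tyr, 8.11-fold for Dct, 23.1-fold for Mlana and 1.65-fold for Kit. The median of this ratio was 11.5 over the 10 genes and 1.36 over all genes tested. It was 32.4 over the 18 hair follicle genes described below, so a wide range was not particular to the pigment genes. Set against that range, bleomycin was below all 3 ajulemic acid libraries for Oca2, Mitf and Kit, 3 of 10 genes, where 22.9% of all genes were, and above all 3 for 0 of 10, where 24.6% were. Control was above the range for Kit alone (22.2% of all genes) and below it for 0 of 10 (26.9%). EHP-101 lay inside the range for all 10 genes, while 18.3% of all genes lay above it and 19.8% below it there. Bleomycin and ajulemic acid replicate 2 were the lowest pair of the 6 libraries for 10 of 10 genes, compared with 18.1% of all genes, and ajulemic acid replicate 3 was the highest for 9 of 10, compared with 26.6%. The exception was Kit, which was highest in control.

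Per base of listed exon length, Dct was the most abundant of the 10 genes in every library. In TPM, which divides counts by the exon length listed for each gene, Dct was at 90.3 in control skin, 39.6 after bleomycin, 111.8 under EHP-101 and 108, 22.5 and 204 under ajulemic acid. Mc1r was the least abundant in every library, at 5.47 TPM in control skin, 0.547 after bleomycin, 4.53 under EHP-101 and 2.48, 0.310 and 7.18 under ajulemic acid. The 10 genes together summed to 332 TPM in control skin, 118 after bleomycin, 362 under EHP-101 and 352, 77.5 and 624 under ajulemic acid. The makeup of that sum differed between libraries. Dct held 27.2 to 33.5% of it in all 6. Mlana held 14.6% in control skin, 5.51% after bleomycin, 10.9% under EHP-101 and 9.33, 3.19 and 10.2% under ajulemic acid. Mitf was the reverse, at 9.65% in control skin, 16.5% after bleomycin, 8.42% under EHP-101 and 8.62, 24.5 and 6.44% under ajulemic acid. In libraries with little pigment gene RNA, the regulators Mitf and Kit thus made up more of what remained and Mlana, Tyr, Slc45a2 and Mc1r less.

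**Figure D3:**
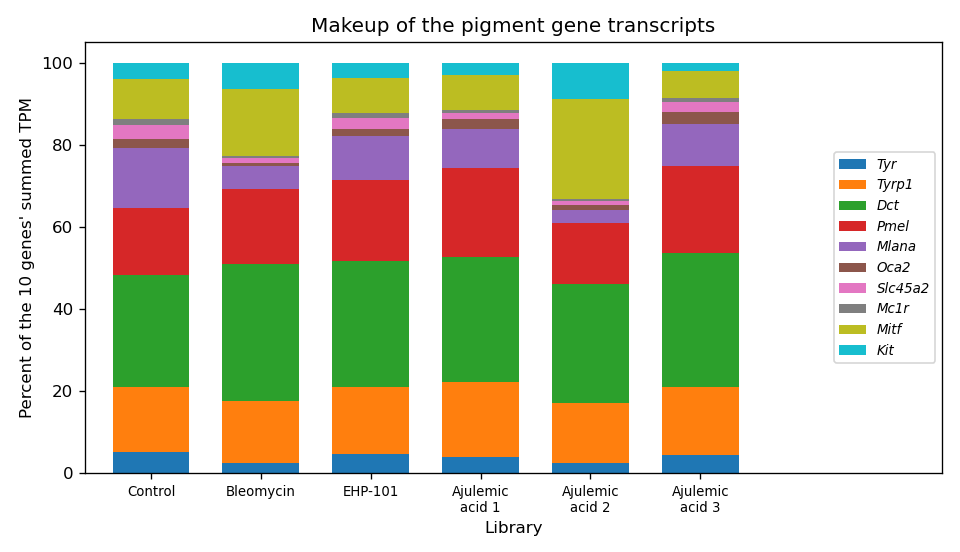
Share of each of the 10 genes (colours, y axis in percent) in their summed TPM, 1 bar per library. Dct holds 27.2 to 33.5% everywhere, while Mitf and Kit take more and Mlana less of the bars of bleomycin and ajulemic acid replicate 2.

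Within pairs of genes of like role the division of counts was uneven in some and nearly even over the libraries in others. Tyr made up 21.6% of the Tyr and Dct counts in control skin (interval 19.7 to 23.5), 9.14% after bleomycin (7.10 to 11.5) and 18.3% under EHP-101 (16.7 to 20.03). In the ajulemic acid libraries it made up 15.3, 11.3 and 16.4%, a mean of 14.3% ± 2.68 (SD, n = 3). Bleomycin was the lowest and control the highest, and both, like EHP-101, lay outside the ajulemic acid range, although the intervals of bleomycin and ajulemic acid replicate 2 (8.66 to 14.4) overlapped. Tyrp1, in contrast, made up 41.3% of the Tyrp1 and Dct counts in control skin, 35.4% after bleomycin, 38.6% under EHP-101 and 41.7, 37.6 and 37.8% under ajulemic acid, so that replicates 2 and 3 were alike in this share. Mlana made up 16.2% of the Mlana and Pmel counts in control skin, 6.10% after bleomycin, 10.7% under EHP-101 and 8.52, 4.46 and 9.38% under ajulemic acid. The 2 transporters divided differently. Oca2 made up 41.6% of the Oca2 and Slc45a2 counts in control skin (interval 36.7 to 46.5), 39.6% after bleomycin (25.8 to 54.7) and 39.4% under EHP-101 (34.0 to 45.0), but 65.5% (59.7 to 71.0), 58.7% (43.2 to 73.0) and 57.2% (53.9 to 60.4) with ajulemic acid. Slc45a2 counts thus outnumbered Oca2 counts in control, bleomycin and EHP-101, and Oca2 outnumbered Slc45a2 in all 3 ajulemic acid libraries, although replicate 2 stood with bleomycin in the level of both genes. This pair was singled out after its values were seen and was given no test.

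**Figure D4:**
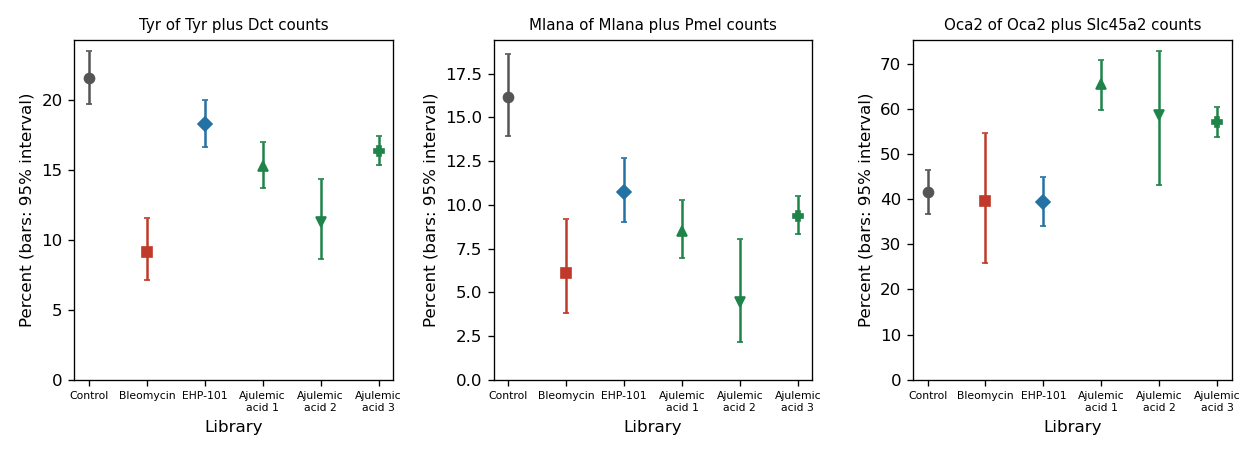
Percent of the first gene in the summed counts of each pair (y axis) for the 6 libraries, with 95% Clopper-Pearson intervals as bars. The Tyr and Mlana shares are lowest in bleomycin and ajulemic acid replicate 2, and the Oca2 share is 57.2 to 65.5% in the ajulemic acid libraries and 39.4 to 41.6% in the others.

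A list of 27 other genes of the pigment pathway was not lower as a whole. In bleomycin against control 13 were higher and 14 lower, with a median log2 fold change of -0.03, and 0 passed edgeR's test, with 1 at an unadjusted p under 0.05. Against bleomycin 19 were higher and 8 lower in EHP-101, and 20 higher and 7 lower with ajulemic acid. Slc24a5, a melanosomal exchanger, was at 8.54 CPM in control skin, 1.35 after bleomycin, 8.48 under EHP-101 and 8.52, 1.89 and 15.01 under ajulemic acid. Gpr143, a receptor of the melanosome membrane, was at 2.69 CPM in control skin, 0.128 after bleomycin (2 counts), 2.68 under EHP-101 and 2.93, 0.287 and 5.19 under ajulemic acid. Trpm1, a channel gene driven by Mitf, was at 32.3, 4.04 and 29.9 CPM in control, bleomycin and EHP-101 and at 29.2, 4.53 and 62.1 with ajulemic acid. These melanocyte-restricted genes were lowest in bleomycin and ajulemic acid replicate 2, as the 10 pigment genes were. Over the list, these libraries were the lowest pair for 10 of 27 genes, against 18.1% of all genes. A pair of lineage factors singled out after their values were seen did not have that pattern. Sox10, which Schwann cells share with melanocytes, was at 5.39 CPM in control skin, 8.86 after bleomycin, 9.21 under EHP-101 and 7.16, 5.33 and 7.08 under ajulemic acid. Pax3 was at 3.09, 2.95 and 4.15 CPM and at 3.68, 3.38 and 4.29 in the same order. Hps1, a gene of organelle trafficking in many cell types and also singled out, was at 9.29 to 10.8 CPM in all 6.

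The signals that reach melanocytes from the follicle and dermis differed among themselves. Of 9 tested, 6 were lower and 3 higher in bleomycin than in control (median -0.45), and 0 passed by edgeR, with 0 at an unadjusted p under 0.05. Kitl, the ligand of Kit, was at 73.1 CPM in control skin, 53.5 after bleomycin, 82.3 under EHP-101 and 61.3, 63.9 and 70.2 under ajulemic acid. Edn3, a ligand for the endothelin receptor of melanoblasts, was at 3.88 CPM in control skin, 0.834 after bleomycin (13 counts), 2.75 under EHP-101 and 1.98, 1.15 and 4.14 under ajulemic acid. Asip, agouti, was at 1.51, 1.09 and 1.53 CPM in control, bleomycin and EHP-101 and at 0.886, 0.287 and 0.648 with ajulemic acid, so all 3 ajulemic acid libraries were below the other libraries, on 5 to 13 counts. The share of all genes that separate in this way was not computed, so this cannot be read as a trait of Asip. Pomc, the melanocortin precursor, had 0 or 1 count in each library and was not tested.

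Hair shaft and follicle genes, like the pigment genes, were lowest in bleomycin and ajulemic acid replicate 2 and highest in replicate 3. All 18 genes of a hair follicle list were lower in bleomycin than in control (median log2 fold change -3.61), higher in EHP-101 (3.32) and higher with ajulemic acid (3.57) than in bleomycin, and by edgeR 0 passed and 0 had an unadjusted p under 0.05. This held for all 18, the lowest pair and the highest library included. The hair keratin Krt31 was at 224 CPM in control skin, 10.3 after bleomycin, 130.4 under EHP-101 and 155, 11.1 and 333 under ajulemic acid, and Krt33a and Krt34 had fitted log2 fold changes of -4.58 and -4.50 in bleomycin against control. Hair keratins have close copies, and how reads with several matches were counted is not given in the sources used here. The list summed to 13905 CPM in control skin, 1161 after bleomycin, 11447 under EHP-101 and 12510.1, 638 and 29116 under ajulemic acid. Per 1000 counts of the inner root sheath keratin Krt71, singled out as the partner, there were 30.9 Dct counts in control skin, 140.5 after bleomycin, 38.2 under EHP-101 and 36.4, 181 and 30.3 under ajulemic acid. Dct was therefore lower by a smaller factor than this keratin in the libraries where both were low. For Tyr the same ratio was 8.50 in control skin, 14.1 after bleomycin, 8.55 under EHP-101 and 6.58, 23.1 and 5.93 under ajulemic acid. The choice of genes matters here. Control CPM exceeded bleomycin CPM 11.1-fold for Krt71 and 2.98-fold for the follicle gene Foxn1, against 10.7-fold for Mc1r and 2.43-fold for Dct. All 10 proliferation genes were lower in bleomycin than in control too (median -1.30, with 0 passed by edgeR and 0 at an unadjusted p under 0.05), with Mki67 at 401 and 148 CPM, Top2a at 177 and 75.1 and Ccnb1 at 12.8 and 4.75. The part of follicle stage in the pigment gene differences was not tested.

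Mast cells, which express Kit and Mitf, and Schwann cells, which arise from the same neural crest, did not have this pattern. Of 7 mast cell genes tested, 4 were lower and 3 higher in bleomycin than in control (median -0.34), and edgeR called 0, with 1 at an unadjusted p under 0.05. The chymase Cma1 was at 25.6 CPM in control skin, 14.4 after bleomycin, 14.5 under EHP-101 and 16.9, 24.6 and 9.13 under ajulemic acid. The mast cell proteases Mcpt4 and Tpsb2 were at 29.3 and 16.6 CPM in control, 19.5 and 13.1 in bleomycin, and 38.9 and 13.6 in ajulemic acid replicate 2. The 8 genes summed to 119.6 CPM in control skin, 90.1 after bleomycin, 79.4 under EHP-101 and 90.8, 142 and 44.7 under ajulemic acid, with the mast cell receptor gene Fcer1a at 0.150 to 0.578. Kit and the mast cell sum were both lower in bleomycin than in control. They lay in opposite orders in EHP-101 against bleomycin and in ajulemic acid replicates 2 and 3. How much Kit and Mitf RNA came from mast cells was not tested. Of 9 Schwann cell genes, 8 were higher in bleomycin than in control (median 1.24), and edgeR called 0, with 6 at an unadjusted p under 0.05, where 6.80% of all genes were. Keratinocyte genes were also higher in bleomycin than in control, 4 of 4 (median 0.84), with 0 called by edgeR and 1, Krt14, at an unadjusted p under 0.05. They were lower in EHP-101 than in bleomycin, again 4 of 4 (median -0.74, with 0 called and 1 at an unadjusted p under 0.05), and lower with ajulemic acid, 4 of 4 (median -0.21, with 0 called and 0 at an unadjusted p under 0.05). These fitted signs were opposite to those of the pigment genes. Krt5 and Krt14 were below bleomycin in all 3 ajulemic acid libraries, but Krt1 and Krt10 were above it in replicates 1 and 2. The 4 keratinocyte genes summed to 5683 CPM in control skin, 9910 after bleomycin, 6073 under EHP-101 and 10053.5, 9168 and 5915 under ajulemic acid, and their part in the pigment gene differences was not tested.

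**Figure D5:**
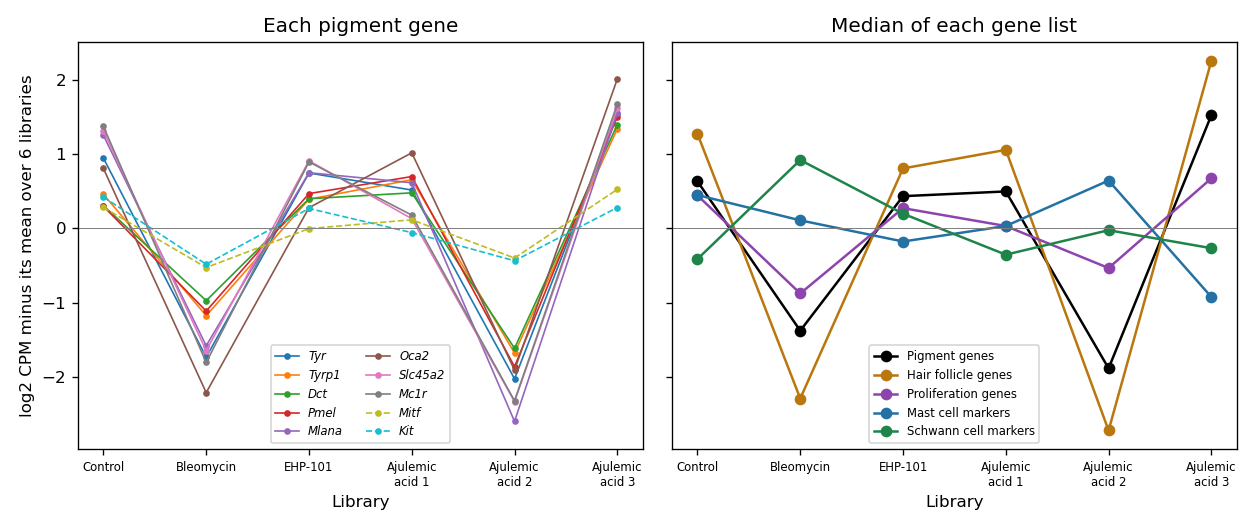
Log2 CPM minus the mean of the 6 libraries (y axis) for each pigment gene (left; Mitf and Kit dashed) and as the median of 5 gene lists (right); the lines join libraries that have no order. The pigment gene median runs from -1.88 in ajulemic acid replicate 2 to 1.53 in replicate 3, that of the hair follicle genes from -2.72 to 2.26, and that of the mast cell markers from -0.92 in replicate 3 to 0.65 in replicate 2.

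The genes most like the pigment genes were sought by the mean absolute difference between each gene's centred log2 CPM and the median profile of the 10 over the 6 libraries. Among 14292 other genes whose mean log2 CPM reached 1, the 8 nearest were Slain1, Fhod3, Slc7a8, Tbc1d30, Ptgds, Dusp2, Samd5 and Fads2, with differences of 0.11 to 0.13. Of the members themselves, Pmel was nearest to the profile at 0.15, and Mitf and Kit were farthest, both at 0.75. Ptgds, a prostaglandin D synthase, was at 13.5 CPM in control skin, 4.04 after bleomycin, 12.7 under EHP-101 and 16.5, 2.58 and 27.1 under ajulemic acid. Slc7a8, an amino acid transporter, was at 73.8, 16.8 and 69.7 CPM and at 81.1, 11.3 and 134 in the same order. The 6 points of each profile are shared libraries, and the likeness is a description.

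Both treatments were further compared with control skin and with one another. In EHP-101 against control log2 fold changes ran from -0.54 for Oca2 to 0.17 for Pmel, with 2 genes higher and 8 lower and a median of -0.24. The SE was 0.39 for Kit and 1.85 for Mlana, so differences of several fold could have gone undetected. With ajulemic acid against control 4 genes were higher and 6 lower (median -0.24), and the sign rested on single libraries, since 5 were higher without replicate 2 and 0 without replicate 3. EHP-101 against ajulemic acid had 5 genes higher and 5 lower, with Oca2 at -0.81 (SE 1.54) and Slc45a2 at 0.37 (SE 1.46). Without replicate 2 only 1 gene was higher in EHP-101, and without replicate 3 all 10 were. edgeR called 0 of the 10 genes in each of these 3 comparisons, with 0 at an unadjusted p under 0.05. Of all genes it called 0% in EHP-101 against control, 0.0345% in ajulemic acid against control and 0% in EHP-101 against ajulemic acid. DESeq2 and limma called 0 of the 10 in each. The labels give no doses, so the compounds were not compared at matched doses.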

How the data were processed

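The deposited tables hold raw counts per gene, which per the series description the authors obtained with featureCounts. The submitters' processing notes also name Trimmomatic 0.36, HISAT2 2.1.0, DESeq2 1.20.0 and the build mm10, with featureCounts at 1.6.1; the strand setting is not given in the sources used here. The authors' merged table held the same counts for the 6 libraries, and 6 further sample columns in it were left out, as they belong to no sample of this series. Gene symbols were found in RefSeq for 25275 of 27179 gene numbers.

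The counts were tested with edgeR 4.0.16 in R 4.3.3, with filterByExpr (minimum count 10), TMM scaling and robust two-sided quasi-likelihood F-tests fitted once over the 6 libraries. P-values were adjusted by Benjamini-Hochberg over 17377 genes and called under 0.05. Only 2 residual degrees of freedom were left, from the ajulemic acid group. SE was the log2 fold change divided by the square root of F. CPM used TMM-scaled library sizes, centred log2 CPM a prior count of 3, and TPM the deposited exon lengths over all genes listed. Alternatives were DESeq2 1.42.0, limma-trend (limma 3.58.1), other scalings, no filter, no robust option and leaving out each ajulemic acid library. The members and gene lists were chosen with earlier results of these data known. All 10 members were named, with the first 3 tested genes of each other list and the 8 genes nearest in profile. Values of some genes that this rule names are not reported here.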

Additional observations from a re-analysis of the deposited data

How the results depend on the processing

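In bleomycin against control, EHP-101 against bleomycin and ajulemic acid against bleomycin, all 10 pigment genes kept their direction and stayed short of the threshold in each of 10 alternatives, 300 of 300 values. In bleomycin against control and EHP-101 against bleomycin, every alternative set the same single libraries against each other. The direction could hardly change there, so its being kept is no support. The number of the 10 genes called was 0 in all 6 comparisons under every alternative run, and the smallest adjusted p was 0.110, by edgeR for ajulemic acid against bleomycin without replicate 2. The count over all genes depended more on the setting. In bleomycin against control edgeR called 0 genes, DESeq2 164, and edgeR without 1 ajulemic acid replicate 0, 8 and 177 (without replicates 1, 2 and 3). In EHP-101 against bleomycin DESeq2 called 10 and every other setting 0. In ajulemic acid against bleomycin edgeR called 0, DESeq2 104, edgeR with no filter 41, and 0, 69 and 92 without each replicate. In EHP-101 against control these were 0, 121, 0 and 0, 9 and 91; in ajulemic acid against control 6, 271, 153 and 0, 216 and 367, with 35 without TMM scaling and 0 by limma; and in EHP-101 against ajulemic acid 0, 67, 16 and 0, 18 and 67. Without TMM scaling the median of all genes in EHP-101 against control was 0.13 in place of 0.00, and 3 pigment genes were higher in place of 2. In ajulemic acid against control limma gave 0 genes higher. No paired analysis was possible because the groups share only 1 replicate number in the labels. Depth limited Mlana and Mc1r most, with 10 counts each in ajulemic acid replicate 2.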

Other observations

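Genes of follicle stem cells, a list not used above, differed among themselves. In bleomycin against control 5 of 7 were lower and 2 higher, with a median log2 fold change of -0.60, and edgeR called 0, with 0 at an unadjusted p under 0.05. Lgr5, which marks cycling follicle stem cells, was at 48.5 CPM in control skin, 26.8 after bleomycin, 43.0 under EHP-101 and 37.4, 25.7 and 47.6 under ajulemic acid. Cd34 was at 189 CPM in control skin, 100.6 after bleomycin, 99.9 under EHP-101 and 111, 155 and 84.6 under ajulemic acid. The stem cell keratin Krt15 was at 1067 CPM in control skin, 1460.2 after bleomycin, 1185 under EHP-101 and 1074, 1340.5 and 939 under ajulemic acid.

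The ratio of Oca2 to Slc45a2 counts prompted a look at all 45 pairs of the 10 genes. In 5 pairs the ratios of the 3 ajulemic acid libraries lay wholly to one side of those of the other libraries. Oca2 was a partner in 4 of them, with Tyr, Mlana, Slc45a2 and Mc1r, each time with relatively more Oca2 under ajulemic acid, and the remaining pair was Mitf and Kit. The ratio of Oca2 to Mc1r counts was 1.16 in control skin, 1.36 after bleomycin and 1.13 under EHP-101, and 3.17, 2.70 and 2.19 under ajulemic acid. These pairs share genes and libraries, were found by looking at the values, and were given no test. How often pairs of other genes separate in this way was not computed, so 5 of 45 cannot be read as a trait of these genes.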
